A study of Mus musculus with 8 samples.

Results

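Integrins, laminins and the other proteins of the basement membrane were described here through 35 genes in 4 populations of stromal cells from newborn mouse bone. The genes were chosen by symbol: the integrin chains named with a number or as *Itgav*, all laminin chains, and *Nid1*, *Nid2*, *Hspg2*, *Dag1* and *Agrn*. Of 36 genes of the annotation that meet this rule, 35 were among the 15880 genes of the table, and *Lamb3* was not analysed here. The leukocyte and platelet integrin chains whose names carry a letter after the stem or the number fall outside the rule.

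Basement membranes are thin sheets of matrix that surround muscle fibres, nerves, fat cells and vessels, and underlie epithelia. Laminins, each assembled from an α, a β and a γ chain, polymerize on the cell surface and are joined to the collagen IV network by nidogens and perlecan, while integrins and dystroglycan tie the sheet to the cytoskeleton. An integrin is a pair of an α and a β chain, and the pair decides whether the cell binds laminin, fibronectin, collagen or a counter-receptor on another cell; in bone marrow such contacts hold blood cells near vessels and stroma.

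All animals were C57BL/6 pups, heterozygous for *Nes-Gfp*, at postnatal day 1, untreated, and the 4 populations shared this genotype, strain and age. Crushed bones were digested with collagenase, cells lacking CD45, CD31 and Ter119 were sorted by GFP and surface Pdgfrα into GFP+ Pdgfrα+, GFP- Pdgfrα+, GFP+ Pdgfrα- and GFP- Pdgfrα- cells, and RNA of 15000 to 80000 cells was amplified and sequenced. Each population had 2 libraries, and each library came from a pool of 3 pups, so that a library does not stand for 1 animal. GFP was driven by regulatory elements of the nestin gene, so that the gate follows the transgene and not every cell that holds nestin.

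Reads counted in genes numbered 3564158 and 3329432 in GFP+ Pdgfrα+, 3869275 and 3221217 in GFP- Pdgfrα+, 3644103 and 3427644 in GFP+ Pdgfrα-, and 4058258 and 5302762 in GFP- Pdgfrα- cells. A value is the number of reads of a gene plus 0.5, per 1e6 of the effective library size, and 3 reads correspond to 0.825 to 1.04. Such limits cover counting error only, since reads of amplified cDNA are not independent molecules. A log2 fold change, given in brackets after log2, is the difference between the means of log2(value + 1) of 2 populations. It comes with its standard error (SE) and a p-value of limma adjusted over all 15880 genes. A gene is called, and said to have risen or fallen, where adjusted p is at or under 0.05. In an exact permutation test, 2 libraries against 2 cannot give a two-sided p under 0.333, so the p-values depend on how limma pools variance over libraries and genes. In bulk RNA, fewer cells of a type and less RNA per cell cannot be told apart.

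The sort genes and markers of other cell types set out what the gates held. Mean values of *Pdgfra*, the sorted receptor, were 744 in GFP+ Pdgfrα+, 816 in GFP- Pdgfrα+, 14.3 in GFP+ Pdgfrα- and 3.83 in GFP- Pdgfrα- cells. *Nes*, whose elements drive the transgene, had means of 64.8, 37.2, 162 and 6.33, in the same order. *Ptprc*, which encodes CD45, had means of 1.14, 0.137, 1.12 and 9.03, in the same order. Those of *Pecam1*, which encodes CD31, were 6.53, 3.96, 11.2 and 20.4, in the same order. *Pdgfra* thus followed its gate, and *Nes* was highest in GFP+ Pdgfrα- cells. The 12 of 12 skeletal muscle genes, with *Pax7* the most abundant (by mean over all 8 libraries, as in the lists below), summed to 72.1 and 83.9, 42.4 and 37.4, 992 and 977, and 32.7 and 17.9, in the same order. Of the pericyte and smooth muscle genes, 11 of 12 were measured, with *Rgs5* the most abundant, and they summed to 591 and 550.1, 307 and 311, 2558 and 3301, and 90.9 and 135, in the same order. The 12 of 12 Schwann cell precursor and glial genes, with *Ngfr* the most abundant, summed to 236 and 192, 97.3 and 107, 559.7 and 478, and 173 and 175, in the same order; *Gfra3* had no reads in GFP- Pdgfrα+ cells, nor *Foxd3* and *Gfra3* in GFP- Pdgfrα- cells. All 3 sums were highest in both GFP+ Pdgfrα- libraries, but single genes departed from them. By mean, 9 of the 12 glial genes were highest in GFP+ Pdgfrα- cells, but *Ngfr* was highest in GFP+ Pdgfrα+ (102, against 28.5 in GFP+ Pdgfrα-), *S100b* in GFP- Pdgfrα+ (11.6, against 3.59) and *Mbp* in GFP- Pdgfrα- cells (114, against 43.4). *Ngfr* was higher in GFP+ Pdgfrα+ than GFP+ Pdgfrα- cells (log2 1.82, adjusted p = 0.000151). Of the pericyte genes, *Pdgfrb* was highest in GFP+ Pdgfrα+ cells. The 9 identifiers of the 8 osteoblast symbols (*Runx2* has 2), with *Col1a1* the most abundant, summed to 55005 and 40935, 17050.0 and 15523, 3385 and 2816, and 470.0 and 600.3, in the same order; *Bglap* had no reads in GFP- Pdgfrα- cells. The 6 of 6 tendon and ligament genes, with *Thbs4* the most abundant, summed to 655 and 665, 3854 and 3906, 26.0 and 26.2, and 103 and 142, in the same order. For the 8 of 8 chondrocyte genes, with *Col2a1* the most abundant, the sums were 317 and 413, 684 and 2142, 72.1 and 102, and 566 and 990.2, in the same order; *Matn1* had no reads in either GFP+ population. Osteoblast genes were thus highest in GFP+ Pdgfrα+ cells and tendon genes in GFP- Pdgfrα+ cells, while the chondrocyte sums spread widely between the GFP- Pdgfrα+ libraries. The 10 of 10 erythroid genes, with *Hbb-b1* the most abundant, summed to 51.6 and 53.8, 59.5 and 47.8, 198 and 105, and 15418 and 23431, in the same order. Of 12 myeloid and leukocyte genes, 11 were measured, with *Lyz2* the most abundant, and they summed to 9.25 and 22.9, 25.3 and 20.3, 29.5 and 35.1, and 108 and 108, in the same order; *Ptprc* and *Elane* had no reads in GFP- Pdgfrα+ cells. Megakaryocyte genes, 5 of 8 with *Gp1ba* the most abundant, summed to 5.11 and 12.8, 5.42 and 5.49, 3.04 and 2.96, and 17.7 and 22.3, in the same order; *Gp9* had no reads in GFP+ Pdgfrα+ cells, nor *Gp1bb* in GFP- Pdgfrα- cells. Blood cell sums were thus highest in GFP- Pdgfrα- cells, although the sort removed cells that carry CD45 or Ter119. Endothelial genes, 11 of 12 with *Eng* the most abundant, summed to 129 and 157, 136 and 134, 106 and 170.2, and 143 and 252, in the same order. Of 8 epithelial genes only *Cdh1* was measured, between 0.118 and 1.93, with no reads in GFP- Pdgfrα- cells. *Pecam1* and *Ptprc* are both sort genes and list members, and bone stroma itself expresses the osteoblast and chondrocyte genes; the part of these cell types in the results that follow was not tested.

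Together the 35 genes took a share of all reads, in percent, of 0.936 and 1.04 in GFP+ Pdgfrα+, 0.945 and 0.994 in GFP- Pdgfrα+, 0.904 and 1.05 in GFP+ Pdgfrα-, and 0.142 and 0.124 in GFP- Pdgfrα- cells. The GFP- Pdgfrα- libraries thus held far less of this RNA than the other 6, which overlapped. These GFP- Pdgfrα- libraries also differed in make-up: the mitochondrial rRNA gene *mt-Rnr2* took 27.2% and 29.1% of their reads, against 9.52% to 17.6% elsewhere, and globin genes took 0.894% and 1.42%. The part of this make-up in the differences was not tested. In GFP+ Pdgfrα- against GFP- Pdgfrα- cells, which asks what GFP goes with among cells without Pdgfrα, 28 of the 35 genes were higher, where 30.1% of all genes were, and 4 (*Itga4*, *Itga5*, *Itgb2* and *Itgb7*) were lower, where 23.6% were. In GFP- Pdgfrα+ against GFP- Pdgfrα- cells, 25 were higher, against 32.9% of all genes, and 3 (*Itga4*, *Itga7* and *Itgb2*) were lower, against 26.8%. The median log2 fold change over the 35 genes was 3.32 in the comparison of the Pdgfrα- cells and 2.64 in that of the GFP- cells, and over all genes it was 0.15 and 0.17. With each library centred on its median (median centring), the all-gene medians moved to -0.30 and -0.28, and after quantile normalization to -0.14 and -0.15. Centring also turned the split over all genes, from 56.1% to 38.9% of calls higher in GFP+ Pdgfrα- cells, and from 55.1% to 40.6% higher in GFP- Pdgfrα+ cells. For the 35 genes the split held: centring and quantile normalization each gave 27 higher and 4 lower in GFP+ Pdgfrα- cells, and 22 and 24 higher with 4 lower in GFP- Pdgfrα+ cells. In GFP+ Pdgfrα+ against GFP+ Pdgfrα- cells, which asks what Pdgfrα goes with among GFP+ cells, 8 genes were higher, against 13.1% of all genes, and 11 were lower, against 11.1%. In GFP+ Pdgfrα+ against GFP- Pdgfrα+ cells, which asks what GFP goes with among Pdgfrα+ cells, 2 genes were higher, against 3.22% of all genes, and 2 were lower, against 2.13%. The split over all genes there, 511 higher and 338 lower, depended on the method: it was 532 and 553 with voom and 390 and 382 with only the compared populations. That between the GFP+ populations, 2080 and 1768, became 1986 and 2102 after quantile normalization. Median log2 fold changes of the 35 genes were -0.17 and 0.10 in these comparisons, and those of all genes were -0.02 and 0.00. The comparisons share libraries, so their counts are not independent of each other. By mean value, 15 of the 35 genes were highest in GFP+ Pdgfrα-, 11 in GFP- Pdgfrα+, 6 in GFP+ Pdgfrα+ and 3 in GFP- Pdgfrα- cells, in which 29 were lowest. The same count was not made over all genes, so it is description and no trait of the 35 genes. Over all genes, the median log2 value was also lower in the GFP- Pdgfrα- libraries (3.20 and 3.26) than in the other 6 (3.67 to 3.73).

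**Figure D1:**
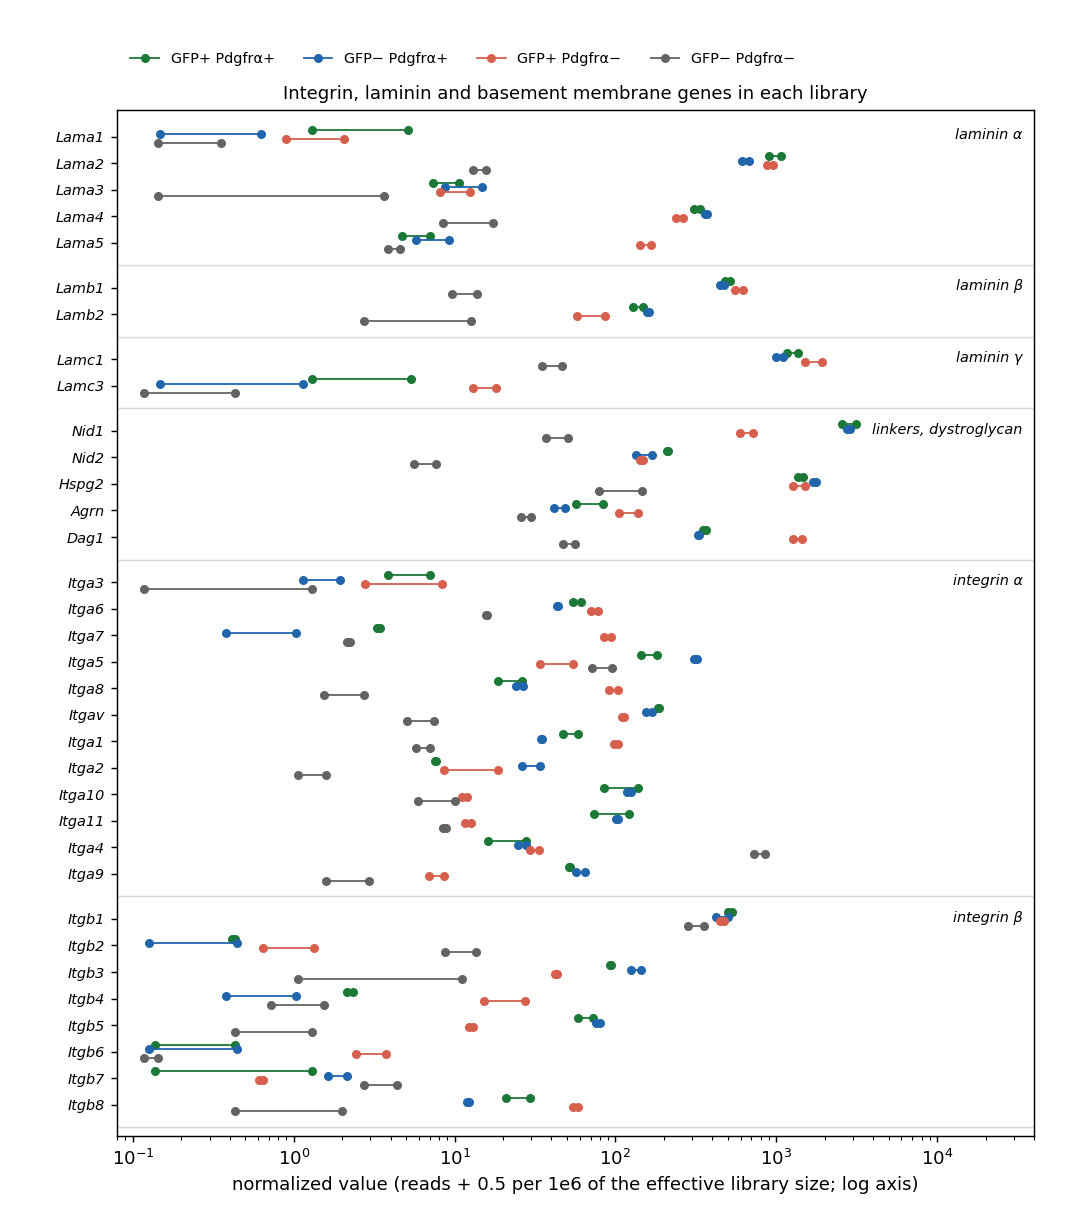
Normalized value of 34 genes in each library, on a log axis; each point is 1 library and a line joins the 2 libraries of a population. The 2 GFP- Pdgfrα- libraries sit lowest for most laminins and linkers and highest for *Itga4*, at 848 and 723.

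Among the laminin α chains, which carry the domains that receptors bind, *Lama2* and *Lama4* were high in 3 populations and *Lama5* in 1. *Lama2*, the α chain of muscle and nerve basement membranes (ENSMUSG00000019899, NCBIM37 chromosome 10, 26701094 to 27336748, minus strand), had values of 900.2 and 1065 in GFP+ Pdgfrα+, 609 and 677 in GFP- Pdgfrα+, 880.0 and 956 in GFP+ Pdgfrα-, and 13.1 and 15.7 in GFP- Pdgfrα- cells. The GFP- Pdgfrα- libraries were lowest, the GFP- Pdgfrα+ libraries came next, and the ranges of the GFP+ populations overlapped. *Lama2* was higher in GFP+ Pdgfrα- than GFP- Pdgfrα- cells (log2 5.91, SE 0.14, adjusted p = 2.64e-10) and in GFP- Pdgfrα+ than GFP- Pdgfrα- cells (log2 5.39, SE 0.14, adjusted p = 5.17e-11). *Lama4*, an α chain of vessel walls and other mesenchymal basement membranes, had values of 309 and 334, 359 and 369, 238 and 262, and 8.47 and 17.3, in the same order. No populations overlapped for *Lama4*: GFP- Pdgfrα+ libraries were highest and GFP- Pdgfrα- libraries lowest. It was higher in GFP- Pdgfrα+ than GFP- Pdgfrα- cells (log2 4.79, SE 0.23, adjusted p = 5.7e-09), while GFP+ Pdgfrα+ against GFP+ Pdgfrα- cells did not pass (log2 0.36, 95% interval -0.15 to 0.87, adjusted p = 0.306). The *Lama4* difference passed with voom (0.36, adjusted p = 0.049) and without GFP- Pdgfrα- replicate 1 (0.36, adjusted p = 0.0373) or 2 (0.36, adjusted p = 0.0395). Adjusted p for *Lama4* ran from 0.0373 to 0.614 over the alternatives.

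*Lama5*, the α chain of many mature basement membranes (ENSMUSG00000015647, NCBIM37 chromosome 2, 179911078 to 179960564, minus strand), had values of 7.04 and 4.74 in GFP+ Pdgfrα+, 9.20 and 5.79 in GFP- Pdgfrα+, 143 and 166 in GFP+ Pdgfrα-, and 3.88 and 4.60 in GFP- Pdgfrα- cells. Both GFP+ Pdgfrα- libraries lay far above the other 6, which ran from 3.88 to 9.20. *Lama5* was higher in GFP+ Pdgfrα- than GFP- Pdgfrα- cells (log2 4.89, SE 0.31, adjusted p = 7.8e-08). It was lower in GFP+ Pdgfrα+ than GFP+ Pdgfrα- cells (log2 -4.51, SE 0.31, adjusted p = 1.32e-06). In GFP- Pdgfrα+ against GFP- Pdgfrα- cells it did not pass (log2 0.67, 95% interval 0.00 to 1.34, adjusted p = 0.078). The *Lama5* difference passed without GFP- Pdgfrα+ replicate 2 (0.97, adjusted p = 0.0412). Adjusted p for *Lama5* ran from 0.0412 to 0.874 over the alternatives. *Lama3*, the α chain of the laminin that anchors epithelia, had values of 10.6 and 7.33, 8.70 and 14.7, 8.13 and 12.5, and 0.144 and 3.66, in the same order. Its 6 values outside GFP- Pdgfrα- cells overlapped, and GFP- Pdgfrα- replicate 1 had no reads of it. *Lama3* was higher in GFP- Pdgfrα+ than GFP- Pdgfrα- cells (log2 2.42, SE 0.57, adjusted p = 0.00295) and in GFP+ Pdgfrα- than GFP- Pdgfrα- cells (log2 2.27, SE 0.57, adjusted p = 0.00513). Without GFP- Pdgfrα- replicate 1 these values fell to 1.41 (adjusted p = 0.0248) and 1.25 (adjusted p = 0.0456), and voom on the reads raised them to 3.80 and 3.66; a pseudocount of 0.1 gave 3.41 in GFP+ Pdgfrα- over GFP- Pdgfrα- cells. Over its 16 alternatives, adjusted p for *Lama3* in GFP- Pdgfrα+ over GFP- Pdgfrα- cells ran from 0.000103 to 0.0402. The *Lama3* call in GFP+ Pdgfrα- over GFP- Pdgfrα- cells did not hold without GFP+ Pdgfrα- replicate 2 (1.99, adjusted p = 0.0626). Adjusted p for *Lama3* ran from 0.000183 to 0.0626 over its 16 alternatives. *Lama1*, the α chain of the first basement membranes of the embryo, stayed between 0.144 and 5.11, had at most 3 reads in each GFP- Pdgfrα+ and GFP- Pdgfrα- library, and was not called in any of the 4 comparisons. Of the alternatives, the one without GFP+ Pdgfrα+ replicate 2 called it between GFP+ Pdgfrα+ and GFP- Pdgfrα+ cells (adjusted p = 0.0343), and between GFP+ Pdgfrα- and GFP- Pdgfrα- cells it was called with only those populations in the fit (adjusted p = 0.0446) and without GFP+ Pdgfrα+ replicate 1 (adjusted p = 0.0483), in ranges of 0.0343 to 0.451 and 0.0446 to 0.502. Skeletal muscle and pericyte sums, and 9 of the 12 glial genes, were highest in GFP+ Pdgfrα- cells like *Lama5*, and their part in its level was not tested.

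The β and γ chains, which complete the trimer, also had their lowest means in GFP- Pdgfrα- cells. *Lamb1*, the β chain of most laminins, had values of 477 and 517 in GFP+ Pdgfrα+, 447 and 471 in GFP- Pdgfrα+, 552 and 618 in GFP+ Pdgfrα-, and 9.62 and 13.8 in GFP- Pdgfrα- cells. Its GFP+ Pdgfrα- libraries were highest and its GFP- Pdgfrα- libraries lowest, with no overlap between populations, although the GFP+ Pdgfrα+ and GFP+ Pdgfrα- values lay close together. *Lamb1* was higher in GFP+ Pdgfrα- than GFP- Pdgfrα- cells (log2 5.54, SE 0.16, adjusted p = 2.64e-10), while GFP+ Pdgfrα+ against GFP+ Pdgfrα- cells did not pass (log2 -0.23, 95% interval -0.58 to 0.11, adjusted p = 0.326). *Lamb2*, the β chain of neuromuscular junctions and kidney filters, had values of 148 and 129, 162 and 158, 57.7 and 85.5, and 2.73 and 12.6, in the same order. Here the Pdgfrα+ libraries were highest, the GFP+ Pdgfrα- libraries next and the GFP- Pdgfrα- libraries lowest, and the GFP- Pdgfrα- libraries differed from each other by the largest ratio. *Lamb2* was higher in GFP- Pdgfrα+ than GFP- Pdgfrα- cells (log2 4.50, SE 0.43, adjusted p = 2.11e-06) and its difference between GFP+ Pdgfrα+ and GFP+ Pdgfrα- cells did not pass (log2 0.97, 95% interval 0.02 to 1.91, adjusted p = 0.132). The *Lamb2* difference passed with only the compared populations (0.97, adjusted p = 0.0091), with voom (0.98, adjusted p = 0.00434), with edgeR (0.98, adjusted p = 0.0285) and without GFP- Pdgfrα- replicate 1 (0.97, adjusted p = 0.00212) or 2 (0.97, adjusted p = 0.00252). Adjusted p for *Lamb2* ran from 0.00212 to 0.502 over the alternatives.

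*Lamc1*, the γ chain of nearly all laminins, had values of 1169.5 and 1364 in GFP+ Pdgfrα+, 994 and 1101 in GFP- Pdgfrα+, 1514 and 1928 in GFP+ Pdgfrα-, and 35.2 and 46.3 in GFP- Pdgfrα- cells. The GFP+ Pdgfrα- libraries were highest, the GFP+ Pdgfrα+ libraries next, and the GFP- Pdgfrα- libraries lowest, without overlap. *Lamc1* was higher in GFP+ Pdgfrα- than GFP- Pdgfrα- cells (log2 5.37, SE 0.16, adjusted p = 2.91e-10). Its difference between GFP+ Pdgfrα+ and GFP+ Pdgfrα- cells did not pass (log2 -0.44, 95% interval -0.79 to -0.09, adjusted p = 0.0695). The *Lamc1* difference passed with the replicate block (-0.44, adjusted p = 0.0123), with median centring (-0.46, adjusted p = 0.0439), after quantile normalization (-1.08, adjusted p = 0.000215), with voom (-0.43, adjusted p = 0.0103) and without GFP- Pdgfrα- replicate 1 (-0.44, adjusted p = 0.0316) or 2 (-0.44, adjusted p = 0.0311). Adjusted p for *Lamc1* ran from 0.000215 to 0.407 over the alternatives. *Lamc3*, a γ chain of nerve and retina, had values of 5.39 and 1.29, 1.13 and 0.148, 13.0 and 18.1, and 0.431 and 0.118, in the same order. Again the GFP+ Pdgfrα- libraries lay above the rest, and the GFP- Pdgfrα- libraries had 1 read and none. *Lamc3* was lower in GFP+ Pdgfrα+ than GFP+ Pdgfrα- cells (log2 -2.10, SE 0.52, adjusted p = 0.012) and higher in GFP+ Pdgfrα- than GFP- Pdgfrα- cells (adjusted p = 7.72e-05). The *Lamc3* call in GFP+ Pdgfrα+ against GFP+ Pdgfrα- cells did not hold with a pseudocount of 0.1 (-2.48, adjusted p = 0.0919), without GFP+ Pdgfrα+ replicate 2 (-1.36, adjusted p = 0.105) and without GFP+ Pdgfrα- replicate 1 (-2.32, adjusted p = 0.0525) or 2 (-1.87, adjusted p = 0.0985). Adjusted p for *Lamc3* ran from 0.00473 to 0.105 over its 16 alternatives.

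The linkers of the sheet and its receptor dystroglycan were all lowest in GFP- Pdgfrα- cells, but divided between the other populations. *Nid1*, which joins the laminin γ chain to collagen IV (ENSMUSG00000005397, NCBIM37 chromosome 13, 13529869 to 13604542, plus strand), had values of 2553 and 3138 in GFP+ Pdgfrα+, 2745 and 2871 in GFP- Pdgfrα+, 597 and 718 in GFP+ Pdgfrα-, and 37.2 and 51.1 in GFP- Pdgfrα- cells. The Pdgfrα+ populations overlapped and lay above GFP+ Pdgfrα- cells, which lay above GFP- Pdgfrα- cells. *Nid1* was higher in GFP- Pdgfrα+ than GFP- Pdgfrα- cells (log2 5.98, SE 0.16, adjusted p = 7.65e-11) and was also higher in GFP+ Pdgfrα+ than GFP+ Pdgfrα- cells (log2 2.11, SE 0.16, adjusted p = 3.07e-06). *Nid2*, the second nidogen, had values of 209 and 211, 134 and 169, 142 and 149, and 5.60 and 7.66, in the same order. Highest were its GFP+ Pdgfrα+ libraries, and the GFP+ Pdgfrα- values fell within the range of the GFP- Pdgfrα+ values. *Nid2* was higher in GFP- Pdgfrα+ than GFP- Pdgfrα- cells (log2 4.33, SE 0.18, adjusted p = 1.27e-09). *Nid2* was also higher in GFP+ Pdgfrα+ than GFP+ Pdgfrα- cells (log2 0.53, SE 0.18, adjusted p = 0.046). The *Nid2* call in the latter comparison did not hold with a pseudocount of 0.1 (0.54, adjusted p = 0.0644), with median centring (0.51, adjusted p = 0.0508), after quantile normalization (0.46, adjusted p = 0.0645), without GFP+ Pdgfrα+ replicate 1 (0.54, adjusted p = 0.132) or 2 (0.53, adjusted p = 0.152), without GFP- Pdgfrα+ replicate 1 (0.53, adjusted p = 0.0566) or 2 (0.53, adjusted p = 0.0583) and without GFP+ Pdgfrα- replicate 1 (0.50, adjusted p = 0.202) or 2 (0.57, adjusted p = 0.139). Adjusted p for *Nid2* ran from 0.00854 to 0.202 over its 16 alternatives. In GFP+ Pdgfrα+ against GFP- Pdgfrα+ cells *Nid2* passed with voom on the reads alone (log2 0.49, adjusted p = 0.0423, in a range of 0.0423 to 0.577).

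*Hspg2*, which encodes perlecan, the heparan sulfate proteoglycan of the sheet, had values of 1464 and 1356 in GFP+ Pdgfrα+, 1695 and 1763 in GFP- Pdgfrα+, 1269 and 1515 in GFP+ Pdgfrα-, and 78.8 and 147 in GFP- Pdgfrα- cells. The GFP- Pdgfrα+ libraries were highest, the GFP+ Pdgfrα+ values fell within the range of the GFP+ Pdgfrα- values, and the GFP- Pdgfrα- libraries were lowest. *Hspg2* was higher in GFP- Pdgfrα+ than GFP- Pdgfrα- cells (log2 3.99, SE 0.22, adjusted p = 1.5e-08) and did not pass between GFP+ Pdgfrα+ and GFP+ Pdgfrα- cells (log2 0.02, 95% interval -0.46 to 0.50, adjusted p = 0.957). *Agrn*, which encodes agrin, the organizer of acetylcholine receptors at the nerve ending, had values of 56.5 and 83.8, 48.8 and 41.7, 105 and 137, and 29.7 and 25.8, in the same order. From GFP+ Pdgfrα- through GFP+ Pdgfrα+ and GFP- Pdgfrα+ to GFP- Pdgfrα- cells its values fell off without overlap. *Agrn* was higher in GFP+ Pdgfrα- than GFP- Pdgfrα- cells (log2 2.08, SE 0.22, adjusted p = 5.76e-06), lower in GFP+ Pdgfrα+ than GFP+ Pdgfrα- cells (log2 -0.79, SE 0.22, adjusted p = 0.0187) and higher in GFP- Pdgfrα+ than GFP- Pdgfrα- cells (log2 0.68, adjusted p = 0.0158). The *Agrn* call in GFP+ Pdgfrα+ against GFP+ Pdgfrα- cells did not hold without GFP+ Pdgfrα+ replicate 1 (-0.51, adjusted p = 0.15) and without GFP+ Pdgfrα- replicate 2 (-0.60, adjusted p = 0.171). Adjusted p for *Agrn* ran from 0.00707 to 0.171 over its 16 alternatives. The *Agrn* call in GFP- Pdgfrα+ over GFP- Pdgfrα- cells did not hold with median centring (0.23, adjusted p = 0.381), without GFP- Pdgfrα+ replicate 1 (0.57, adjusted p = 0.11) and without GFP- Pdgfrα- replicate 2 (0.59, adjusted p = 0.0715). Adjusted p for *Agrn* ran from 0.00939 to 0.381 over its 16 alternatives. *Dag1*, which encodes both subunits of dystroglycan, a laminin receptor linked to dystrophin (ENSMUSG00000039952, NCBIM37 chromosome 9, 108108286 to 108166255, minus strand), had values of 364 and 351, 328 and 324, 1274 and 1452, and 56.2 and 47.3, in the same order. Both GFP+ Pdgfrα- libraries were well above the rest and both GFP- Pdgfrα- libraries well below. *Dag1* was higher in GFP+ Pdgfrα- than GFP- Pdgfrα- cells (log2 4.70, SE 0.13, adjusted p = 2.64e-10). It was lower in GFP+ Pdgfrα+ than GFP+ Pdgfrα- cells (log2 -1.92, SE 0.13, adjusted p = 1.1e-06). Like *Lama5*, it was highest where the skeletal muscle and pericyte sums and most glial genes were, whose part was not tested.

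The laminin-binding integrin α chains were led by *Itga6* and, in GFP+ Pdgfrα- cells, by *Itga7*. *Itga6*, which pairs with the products of *Itgb1* and *Itgb4*, had values of 60.9 and 54.8 in GFP+ Pdgfrα+, 44.0 and 43.5 in GFP- Pdgfrα+, 70.5 and 77.8 in GFP+ Pdgfrα-, and 15.9 and 15.7 in GFP- Pdgfrα- cells. From high to low, GFP+ Pdgfrα-, GFP+ Pdgfrα+, GFP- Pdgfrα+ and GFP- Pdgfrα- libraries followed each other with no overlap. *Itga6* was higher in GFP+ Pdgfrα- than GFP- Pdgfrα- cells (log2 2.16, SE 0.17, adjusted p = 5.88e-07), while GFP+ Pdgfrα+ against GFP+ Pdgfrα- cells did not pass (log2 -0.35, 95% interval -0.73 to 0.02, adjusted p = 0.166). *Itga7*, the laminin receptor chain of skeletal and smooth muscle (ENSMUSG00000025348, NCBIM37 chromosome 10, 128370869 to 128395333, plus strand), had values of 3.45 and 3.31, 0.378 and 1.04, 84.4 and 94.3, and 2.15 and 2.24, in the same order. Only the GFP+ Pdgfrα- libraries were high: the other 6 ran from 0.378 to 3.45, and the GFP- Pdgfrα+ libraries had 1 and 3 reads. *Itga7* was higher in GFP+ Pdgfrα- than GFP- Pdgfrα- cells (log2 4.82, SE 0.36, adjusted p = 3.33e-07). *Itga7* was also lower in GFP+ Pdgfrα+ than GFP+ Pdgfrα- cells (log2 -4.36, SE 0.36, adjusted p = 5.15e-06). In GFP- Pdgfrα+ cells it was lower than in GFP- Pdgfrα- cells (log2 -0.93, adjusted p = 0.0413). This value rests on few reads and moved with the setting: it was -1.64 with a pseudocount of 0.1, -1.57 after quantile normalization and -1.91 with edgeR. The *Itga7* call in GFP- Pdgfrα+ over GFP- Pdgfrα- cells did not hold with voom (-1.84, adjusted p = 0.0753), without GFP- Pdgfrα+ replicate 1 (-0.65, adjusted p = 0.203), without GFP+ Pdgfrα- replicate 1 (-0.93, adjusted p = 0.065) or 2 (-0.93, adjusted p = 0.0652) and without GFP- Pdgfrα- replicate 1 (-0.95, adjusted p = 0.0996) or 2 (-0.91, adjusted p = 0.114). Adjusted p for *Itga7* ran from 0.00221 to 0.203 over its 16 alternatives. The skeletal muscle and pericyte sums, highest in the same GFP+ Pdgfrα- libraries, were not tested for their part in it. *Itga3*, a receptor chain for epithelial laminins, had values of 7.04 and 3.88, 1.13 and 1.93, 2.79 and 8.36, and 1.29 and 0.118, in the same order. The GFP+ populations overlapped, as did the GFP- populations, which were lower. *Itga3* was higher in GFP+ Pdgfrα- than GFP- Pdgfrα- cells (log2 1.90, SE 0.53, adjusted p = 0.00942), and this value was 3.17 with a pseudocount of 0.1, 3.70 with voom and 3.21 with edgeR. The *Itga3* call did not hold after quantile normalization (1.33, adjusted p = 0.0668), without GFP+ Pdgfrα- replicate 2 (1.24, adjusted p = 0.118) and without GFP- Pdgfrα- replicate 2 (1.38, adjusted p = 0.0943). Adjusted p for *Itga3* ran from 0.00689 to 0.118 over its 16 alternatives.

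The α chains that bind the RGD motif of fibronectin and similar proteins were highest in a different population each. *Itga5*, which forms the main fibronectin receptor with the product of *Itgb1* (ENSMUSG00000000555, NCBIM37 chromosome 15, 103174720 to 103197194, minus strand), had values of 143 and 180.4 in GFP+ Pdgfrα+, 321 and 309 in GFP- Pdgfrα+, 34.1 and 54.7 in GFP+ Pdgfrα-, and 94.6 and 71.1 in GFP- Pdgfrα- cells. Highest were the GFP- Pdgfrα+ libraries, followed by GFP+ Pdgfrα+, GFP- Pdgfrα- and GFP+ Pdgfrα- libraries, with no overlap. *Itga5* was higher in GFP- Pdgfrα+ than GFP- Pdgfrα- cells (log2 1.93, SE 0.22, adjusted p = 8.45e-06), higher in GFP+ Pdgfrα+ than GFP+ Pdgfrα- cells (log2 1.87, SE 0.22, adjusted p = 6.67e-05) and lower in GFP+ Pdgfrα- than GFP- Pdgfrα- cells (log2 -0.91, SE 0.22, adjusted p = 0.00353). The *Itga5* call in the last comparison did not hold without GFP+ Pdgfrα- replicate 1 (-0.58, adjusted p = 0.054). Adjusted p for *Itga5* ran from 0.000135 to 0.054 over its 16 alternatives. *Itga8*, the receptor chain for nephronectin found on mesenchyme and smooth muscle, had values of 18.6 and 26.3, 26.6 and 24.2, 91.2 and 103, and 2.73 and 1.53, in the same order. Its GFP+ Pdgfrα- libraries were highest, the Pdgfrα+ populations overlapped, and the GFP- Pdgfrα- libraries were lowest. *Itga8* was higher in GFP+ Pdgfrα- than GFP- Pdgfrα- cells (log2 4.996, SE 0.27, adjusted p = 2.42e-08). It was lower in GFP+ Pdgfrα+ than GFP+ Pdgfrα- cells (log2 -2.08, SE 0.27, adjusted p = 0.000171). *Itgav*, the partner of several β chains, had values of 183 and 188, 156 and 169, 113 and 109.7, and 5.03 and 7.43, in the same order. In *Itgav* the GFP+ Pdgfrα+ libraries were highest, then GFP- Pdgfrα+, GFP+ Pdgfrα- and GFP- Pdgfrα- libraries, with no overlap. *Itgav* was higher in GFP- Pdgfrα+ than GFP- Pdgfrα- cells (log2 4.52, SE 0.18, adjusted p = 9.42e-10). *Itgav* was also higher in GFP+ Pdgfrα+ than GFP+ Pdgfrα- cells (log2 0.73, SE 0.18, adjusted p = 0.0103). The *Itgav* call in the latter comparison did not hold without GFP+ Pdgfrα+ replicate 2 (0.71, adjusted p = 0.0602) and without GFP+ Pdgfrα- replicate 1 (0.75, adjusted p = 0.0635) or 2 (0.71, adjusted p = 0.0725). Adjusted p for *Itgav* ran from 0.000698 to 0.0725 over its 16 alternatives.

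Of the collagen-binding α chains, *Itga10* and *Itga11* were highest in the 4 Pdgfrα+ libraries. *Itga10*, the collagen receptor chain of cartilage and its surroundings, had values of 138 and 84.7 in GFP+ Pdgfrα+, 125 and 117 in GFP- Pdgfrα+, 11.05 and 11.96 in GFP+ Pdgfrα-, and 5.89 and 10.02 in GFP- Pdgfrα- cells. *Itga11*, the fibrillar collagen receptor chain of fibroblasts and periosteal cells, had values of 121 and 73.2, 104 and 101, 11.5 and 12.7, and 8.47 and 8.84, in the same order. For both genes the GFP- Pdgfrα+ values fell within the range of the GFP+ Pdgfrα+ values, and all 4 lay above the Pdgfrα- libraries. *Itga10* was higher in GFP- Pdgfrα+ than GFP- Pdgfrα- cells (log2 3.81, SE 0.27, adjusted p = 1.42e-07). *Itga10* was also higher in GFP+ Pdgfrα+ than GFP+ Pdgfrα- cells (log2 3.12, SE 0.27, adjusted p = 7.3e-06). *Itga11* was higher in GFP- Pdgfrα+ than GFP- Pdgfrα- cells (log2 3.42, SE 0.24, adjusted p = 1.14e-07). *Itga11* was also higher in GFP+ Pdgfrα+ than GFP+ Pdgfrα- cells (log2 2.86, SE 0.24, adjusted p = 5.38e-06). Neither passed between GFP+ Pdgfrα- and GFP- Pdgfrα- cells: the 95% interval was -0.07 to 1.11 for *Itga10* (adjusted p = 0.127) and -0.07 to 0.96 for *Itga11* (adjusted p = 0.138). The *Itga10* difference passed without GFP- Pdgfrα- replicate 2 (0.86, adjusted p = 0.0225). Adjusted p for *Itga10* ran from 0.0225 to 0.886 over the alternatives. Osteoblast sums were highest in GFP+ Pdgfrα+ cells and tendon sums in GFP- Pdgfrα+ cells, and their part in these levels was not tested.

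*Itga1*, a collagen IV and collagen I receptor chain of smooth muscle and fibroblasts, had values of 58.7 and 47.0 in GFP+ Pdgfrα+, 34.9 and 34.6 in GFP- Pdgfrα+, 98.0 and 103 in GFP+ Pdgfrα-, and 7.04 and 5.78 in GFP- Pdgfrα- cells. Here too GFP+ Pdgfrα- libraries were highest, then GFP+ Pdgfrα+, GFP- Pdgfrα+ and GFP- Pdgfrα- libraries, with no overlap. *Itga1* was higher in GFP+ Pdgfrα- than GFP- Pdgfrα- cells (log2 3.78, SE 0.20, adjusted p = 1.85e-08). It was lower in GFP+ Pdgfrα+ than GFP+ Pdgfrα- cells (log2 -0.92, SE 0.20, adjusted p = 0.0051). The *Itga1* call in the latter comparison did not hold without GFP+ Pdgfrα- replicate 2 (-0.89, adjusted p = 0.0518). Adjusted p for *Itga1* ran from 0.000691 to 0.0518 over its 16 alternatives. *Itga2*, the collagen receptor chain also found on platelets and epithelia, had values of 7.60 and 7.62, 33.9 and 26.3, 18.6 and 8.62, and 1.58 and 1.06, in the same order. Its GFP- Pdgfrα+ libraries were highest and its GFP- Pdgfrα- libraries lowest, and the GFP+ Pdgfrα- libraries lay apart from each other, both above the GFP+ Pdgfrα+ libraries. *Itga2* rose in GFP- Pdgfrα+ over GFP- Pdgfrα- cells (log2 3.74, SE 0.38, adjusted p = 3.81e-06), and in GFP+ Pdgfrα- over GFP- Pdgfrα- cells it also rose (log2 2.57, SE 0.38, adjusted p = 0.000117).

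*Itga4*, whose product binds fibronectin and the vascular receptor Vcam1 and holds blood progenitors in the marrow (ENSMUSG00000027009, NCBIM37 chromosome 2, 79095583 to 79173280, plus strand), had values of 16.2 and 27.7 in GFP+ Pdgfrα+, 27.6 and 24.8 in GFP- Pdgfrα+, 29.3 and 33.6 in GFP+ Pdgfrα-, and 848 and 723 in GFP- Pdgfrα- cells. Both GFP- Pdgfrα- libraries lay far above the other 6, which ran from 16.2 to 33.6. *Itga4* was lower in GFP- Pdgfrα+ than GFP- Pdgfrα- cells (log2 -4.85, SE 0.22, adjusted p = 3.52e-09) and in GFP+ Pdgfrα- than GFP- Pdgfrα- cells (log2 -4.60, SE 0.22, adjusted p = 1e-08). It did not pass in GFP+ Pdgfrα+ against GFP+ Pdgfrα- cells (log2 -0.54, 95% interval -1.03 to -0.05, adjusted p = 0.104). The *Itga4* difference passed without GFP+ Pdgfrα+ replicate 2 (-0.91, adjusted p = 0.0121). Adjusted p for *Itga4* ran from 0.0121 to 0.59 over the alternatives. Erythroid and leukocyte sums were highest in the same GFP- Pdgfrα- libraries, and their part in the level of *Itga4* was not tested. *Itga9*, a relative of *Itga4* that binds tenascin C and osteopontin, had values of 52.1 and 51.3, 64.4 and 57.2, 6.92 and 8.62, and 1.58 and 2.95, in the same order. Unlike *Itga4*, it was highest in the GFP- Pdgfrα+ libraries, then in GFP+ Pdgfrα+, GFP+ Pdgfrα- and GFP- Pdgfrα- cells, with no overlap. *Itga9* was higher in GFP- Pdgfrα+ than GFP- Pdgfrα- cells (log2 4.27, SE 0.28, adjusted p = 6.7e-08), in GFP+ Pdgfrα+ than GFP+ Pdgfrα- cells (log2 2.59, SE 0.28, adjusted p = 3.8e-05) and in GFP+ Pdgfrα- than GFP- Pdgfrα- cells (log2 1.45, SE 0.28, adjusted p = 0.000804). After quantile normalization the last value was 0.77 (adjusted p = 0.0285), in a range of 0.000302 to 0.0285 over its 16 alternatives.

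Of the integrin β chains, *Itgb1* was broad, *Itgb3* and *Itgb5* were highest in the Pdgfrα+ libraries, *Itgb4* and *Itgb8* were highest in GFP+ Pdgfrα- cells, and *Itgb2* in GFP- Pdgfrα- cells. *Itgb1*, the partner of most α chains, had values of 527 and 499 in GFP+ Pdgfrα+, 501 and 422 in GFP- Pdgfrα+, 470.4 and 449 in GFP+ Pdgfrα-, and 357 and 282 in GFP- Pdgfrα- cells. The GFP- Pdgfrα+ range overlapped those of the GFP+ populations, and all 3 populations lay above the GFP- Pdgfrα- libraries. *Itgb1* was higher in GFP+ Pdgfrα- than GFP- Pdgfrα- cells (log2 0.53, SE 0.14, adjusted p = 0.00638). In GFP- Pdgfrα+ over GFP- Pdgfrα- cells it was higher as well (log2 0.53, SE 0.14, adjusted p = 0.00558). The *Itgb1* call in GFP+ Pdgfrα- over GFP- Pdgfrα- cells did not hold with median centring (0.08, adjusted p = 0.673) and without GFP- Pdgfrα- replicate 2 (0.36, adjusted p = 0.0501). Adjusted p for *Itgb1* ran from 0.000273 to 0.673 over its 16 alternatives. The *Itgb1* call in GFP- Pdgfrα+ over GFP- Pdgfrα- cells did not hold with median centring (0.08, adjusted p = 0.651) and without GFP- Pdgfrα+ replicate 1 (0.41, adjusted p = 0.0724). Adjusted p for *Itgb1* ran from 0.000936 to 0.651 over its 16 alternatives. Quantile normalization instead raised the value in GFP+ Pdgfrα- over GFP- Pdgfrα- cells to 0.83 (adjusted p = 0.000273).

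*Itgb3*, the vitronectin receptor chain of osteoclasts, platelets and mesenchyme, had values of 92.4 and 93.3 in GFP+ Pdgfrα+, 144 and 124 in GFP- Pdgfrα+, 41.9 and 43.1 in GFP+ Pdgfrα-, and 11.1 and 1.06 in GFP- Pdgfrα- cells. The GFP- Pdgfrα+ libraries were highest, then the GFP+ Pdgfrα+ and GFP+ Pdgfrα- libraries, and the GFP- Pdgfrα- libraries, with 38 and 4 reads, lay far apart. *Itgb3* was higher in GFP- Pdgfrα+ than GFP- Pdgfrα- cells (log2 4.76, SE 0.55, adjusted p = 1.18e-05) and in GFP+ Pdgfrα- than GFP- Pdgfrα- cells (log2 3.12, SE 0.55, adjusted p = 0.000452). Without GFP- Pdgfrα- replicate 2 the latter was 1.85 (adjusted p = 6.25e-06), in a range of 9.31e-09 to 0.0138 over its 16 alternatives. It did not pass in GFP+ Pdgfrα+ against GFP+ Pdgfrα- cells (log2 1.11, 95% interval -0.10 to 2.32, adjusted p = 0.177). The *Itgb3* difference passed with only the compared populations (1.11, adjusted p = 0.00113), with voom (1.13, adjusted p = 0.00449), with edgeR (1.15, adjusted p = 0.026) and without GFP- Pdgfrα- replicate 1 (1.11, adjusted p = 0.000401) or 2 (1.11, adjusted p = 0.000222). Adjusted p for *Itgb3* ran from 0.000222 to 0.415 over the alternatives. *Itgb5*, another vitronectin receptor chain that pairs with *Itgav*, had values of 72.5 and 58.2, 76.0 and 80.0, 12.3 and 13.0, and 0.431 and 1.30, in the same order. All 4 Pdgfrα+ libraries lay above the GFP+ Pdgfrα- libraries, and those above the GFP- Pdgfrα- libraries. *Itgb5* was higher in GFP- Pdgfrα+ than GFP- Pdgfrα- cells (log2 5.45, SE 0.28, adjusted p = 7.97e-09), in GFP+ Pdgfrα+ than GFP+ Pdgfrα- cells (log2 2.28, SE 0.28, adjusted p = 0.000104) and in GFP+ Pdgfrα- than GFP- Pdgfrα- cells (log2 2.91, SE 0.28, adjusted p = 2.78e-06). *Itgb8*, whose product activates latent TGF-β with that of *Itgav*, had values of 29.4 and 20.8, 12.2 and 12.03, 58.4 and 54.7, and 0.431 and 2.00, in the same order. Its order was GFP+ Pdgfrα-, GFP+ Pdgfrα+, GFP- Pdgfrα+ and GFP- Pdgfrα- cells, with no overlap. *Itgb8* was higher in GFP+ Pdgfrα- than GFP- Pdgfrα- cells (log2 4.79, SE 0.36, adjusted p = 3.17e-07). It was lower in GFP+ Pdgfrα+ than GFP+ Pdgfrα- cells (log2 -1.16, SE 0.36, adjusted p = 0.0334). The *Itgb8* call in the latter comparison did not hold with a pseudocount of 0.1 (-1.19, adjusted p = 0.15), without GFP+ Pdgfrα+ replicate 1 (-1.40, adjusted p = 0.0545) or 2 (-0.92, adjusted p = 0.191), without GFP- Pdgfrα+ replicate 1 (-1.16, adjusted p = 0.0565) or 2 (-1.16, adjusted p = 0.0563) and without GFP+ Pdgfrα- replicate 1 (-1.11, adjusted p = 0.181) or 2 (-1.20, adjusted p = 0.139). Adjusted p for *Itgb8* ran from 0.00175 to 0.191 over its 16 alternatives.

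*Itgb4*, the partner of *Itga6* in hemidesmosomes and Schwann cells, had values of 2.35 and 2.16 in GFP+ Pdgfrα+, 0.378 and 1.04 in GFP- Pdgfrα+, 27.6 and 15.3 in GFP+ Pdgfrα-, and 0.718 and 1.53 in GFP- Pdgfrα- cells. Only the GFP+ Pdgfrα- libraries were high, and the GFP- populations overlapped. *Itgb4* was higher in GFP+ Pdgfrα- than GFP- Pdgfrα- cells (log2 3.37, SE 0.43, adjusted p = 3.49e-05). *Itgb4* was also lower in GFP+ Pdgfrα+ than GFP+ Pdgfrα- cells (log2 -2.73, SE 0.43, adjusted p = 0.00072). *Itgb2*, the β chain of leukocyte integrins, had values of 0.414 and 0.431, 0.126 and 0.446, 1.34 and 0.643, and 8.76 and 13.6, in the same order. Both GFP- Pdgfrα- libraries lay above the other 6, of which the Pdgfrα+ libraries had 1 read or none. *Itgb2* was lower in GFP+ Pdgfrα- than GFP- Pdgfrα- cells (log2 -2.61, SE 0.40, adjusted p = 0.000139) and in GFP- Pdgfrα+ than GFP- Pdgfrα- cells (adjusted p = 1.89e-05), where the leukocyte sums were also higher in GFP- Pdgfrα- cells and their part was not tested. *Itgb6*, a partner of *Itgav* in epithelia, stayed between 0.118 and 3.76, with 15 and 9 reads in the GFP+ Pdgfrα- libraries and none in the GFP- Pdgfrα- libraries. It was lower in GFP+ Pdgfrα+ than GFP+ Pdgfrα- cells (log2 -1.67, adjusted p = 0.00557) and higher in GFP+ Pdgfrα- than GFP- Pdgfrα- cells (log2 1.84, adjusted p = 0.000979). With edgeR these values were -4.09 and 6.48, and the former was no longer called (adjusted p = 0.0577, in a range of 0.00494 to 0.0577). *Itgb7*, a lymphocyte β chain, stayed between 0.138 and 4.36, with 2 reads in each GFP+ Pdgfrα- library. It was lower in GFP+ Pdgfrα- than GFP- Pdgfrα- cells (log2 -1.46, adjusted p = 0.0122). The *Itgb7* call did not hold without GFP+ Pdgfrα- replicate 1 (-1.44) or 2 (-1.48) and without GFP- Pdgfrα- replicate 2 (-1.20). Its value was -2.29 with a pseudocount of 0.1, -2.49 with voom and -2.77 with edgeR. Adjusted p for *Itgb7* ran from 0.000772 to 0.0936 over its 16 alternatives. *Itgb7* was not called in GFP- Pdgfrα+ against GFP- Pdgfrα- cells (adjusted p = 0.222), except with median centring (adjusted p = 0.0442) and after quantile normalization (adjusted p = 0.0124), in a range of 0.0124 to 0.592.

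**Figure D2:**
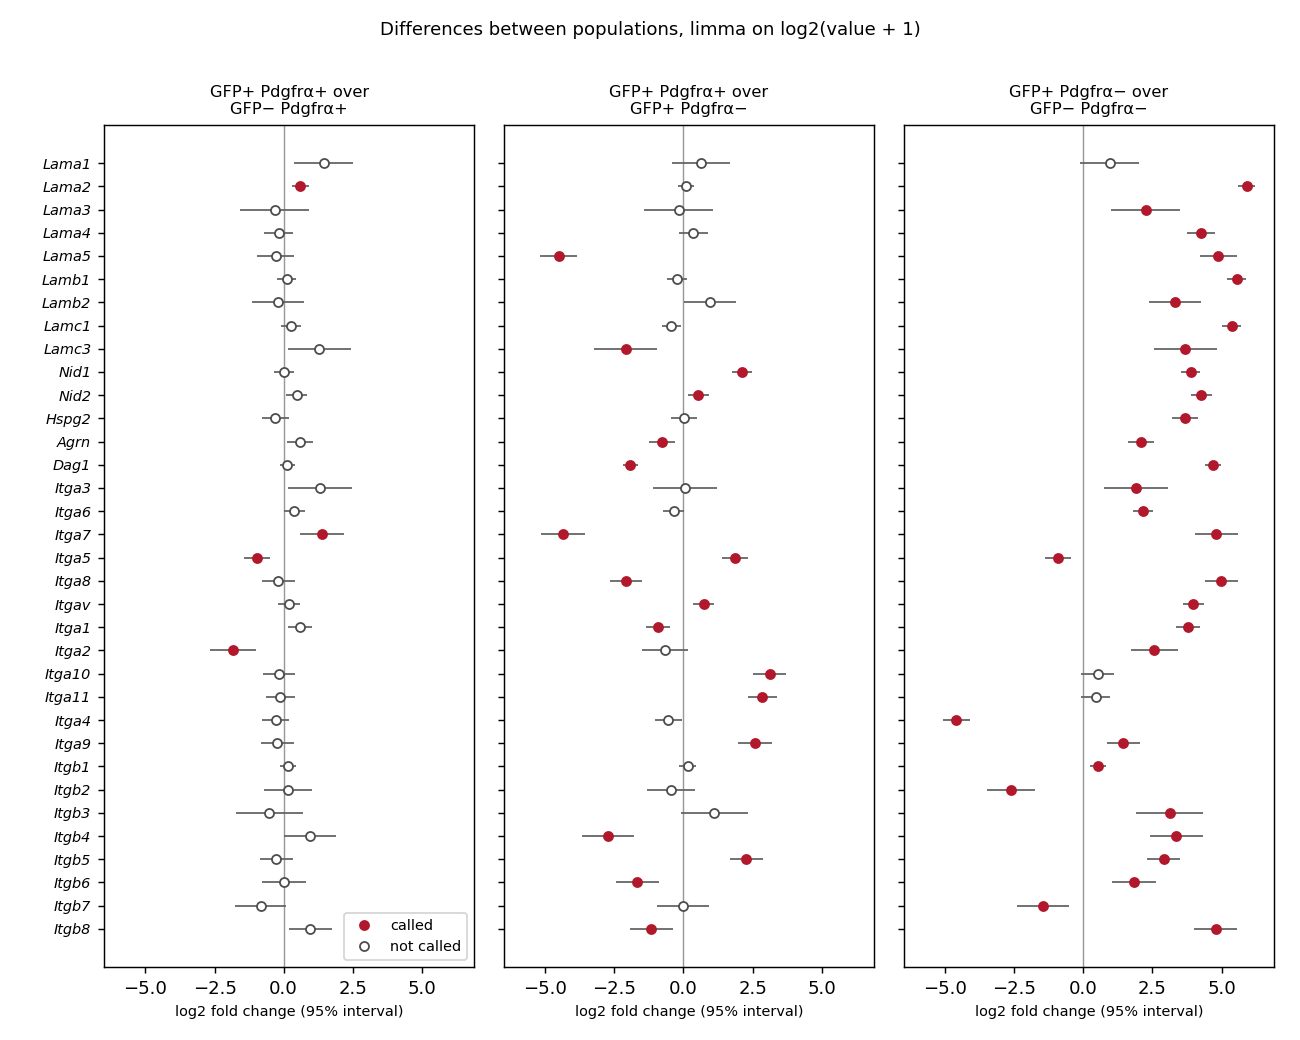
Log2 fold change of 34 genes with its 95% interval in 3 comparisons; filled points are called at an adjusted p of 0.05. Filled are 4 of 34 points between the Pdgfrα+ populations, where 5.35% of all genes were called, and 31 of 34 between the Pdgfrα- populations, where 53.7% were.

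Within the Pdgfrα+ gate, where GFP+ Pdgfrα+ and GFP- Pdgfrα+ cells were compared, 4 of the 35 genes were called, against 5.35% of all genes. *Lama2* was higher in both GFP+ Pdgfrα+ than in both GFP- Pdgfrα+ libraries (log2 0.61, SE 0.14, adjusted p = 0.023). *Itga7* was also higher in GFP+ Pdgfrα+ cells (log2 1.38, SE 0.36, adjusted p = 0.0471), on 12 and 11 reads against 1 and 3. *Itga2* was lower in both GFP+ Pdgfrα+ than in both GFP- Pdgfrα+ libraries (log2 -1.84, SE 0.38, adjusted p = 0.0155). *Itga5* was likewise lower in GFP+ Pdgfrα+ cells (log2 -0.96, SE 0.22, adjusted p = 0.0228). In the same comparison all 9 osteoblast identifiers were higher and all 6 tendon genes lower. Also higher were 3 of 12 skeletal muscle, 4 of 11 pericyte and 5 of 12 glial genes, and lower were 4 of 8 chondrocyte genes. The part of these cell types in the 4 calls of the 35 genes was not tested. Each of the 4 calls failed without at least 1 of the libraries. The *Lama2* call did not hold without GFP+ Pdgfrα+ replicate 1 (0.73, adjusted p = 0.0524) or 2 (0.49, adjusted p = 0.156), without GFP- Pdgfrα+ replicate 1 (0.53, adjusted p = 0.201) or 2 (0.69, adjusted p = 0.103) and without GFP+ Pdgfrα- replicate 1 (0.61, adjusted p = 0.0533) or 2 (0.61, adjusted p = 0.053). Adjusted p for *Lama2* ran from 0.00162 to 0.201 over its 16 alternatives. The *Itga2* call did not hold without GFP+ Pdgfrα+ replicate 1 (-1.84, adjusted p = 0.0834) or 2 (-1.84, adjusted p = 0.0775) and without GFP- Pdgfrα+ replicate 1 (-1.66, adjusted p = 0.16) or 2 (-2.02, adjusted p = 0.0915). Adjusted p for *Itga2* ran from 0.00626 to 0.16 over its 16 alternatives. The *Itga5* call did not hold without GFP+ Pdgfrα+ replicate 1 (-0.80, adjusted p = 0.166) or 2 (-1.13, adjusted p = 0.056) and without GFP- Pdgfrα+ replicate 1 (-0.94, adjusted p = 0.17) or 2 (-0.99, adjusted p = 0.146). Adjusted p for *Itga5* ran from 0.00159 to 0.17 over its 16 alternatives. The *Itga7* call did not hold with the replicate block (1.38, adjusted p = 0.0506), with only the compared populations (1.38, adjusted p = 0.119), after quantile normalization (1.29, adjusted p = 0.0569), with voom (2.46, adjusted p = 0.0963), without GFP+ Pdgfrα+ replicate 1 (1.36, adjusted p = 0.143) or 2 (1.41, adjusted p = 0.123), without GFP- Pdgfrα+ replicate 1 (1.102, adjusted p = 0.248) or 2 (1.67, adjusted p = 0.086) and without GFP+ Pdgfrα- replicate 1 (1.38, adjusted p = 0.0981) or 2 (1.38, adjusted p = 0.0989). Adjusted p for *Itga7* ran from 0.0207 to 0.248 over its 16 alternatives. The value of *Itga7* was 2.24 with a pseudocount of 0.1 and 2.50 with edgeR. Without GFP+ Pdgfrα+ replicate 2 all 4 calls were lost, and *Lama1* (log2 2.16), not among the 4, passed instead. Of the 35 genes, none was called with limma without GFP+ Pdgfrα+ replicate 1 or without either GFP- Pdgfrα+ library, 1 was called without GFP+ Pdgfrα+ replicate 2, and 2 were called without either GFP+ Pdgfrα- library. Over all genes, 350 and 517 were called without GFP+ Pdgfrα+ replicate 1 and 2, and 306 and 246 without GFP- Pdgfrα+ replicate 1 and 2, against 849 with all 8 libraries. The other 31 genes did not pass, among them *Itgb8* (log2 0.97, 95% interval 0.20 to 1.75, adjusted p = 0.155). The *Itgb8* difference passed without GFP- Pdgfrα- replicate 1 (0.97, adjusted p = 0.0405) or 2 (0.97, adjusted p = 0.0487). Adjusted p for *Itgb8* ran from 0.0405 to 0.455 over the alternatives. For *Nid1* the 95% interval was -0.34 to 0.37, and for *Itgb1* it was -0.15 to 0.46.

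Whether GFP went with the same differences in both Pdgfrα gates was tested directly, as the GFP difference in Pdgfrα+ cells minus that in Pdgfrα- cells. It passed for 28 of the 35 genes, against 44.3% of all genes, with a negative value for 26 of them and a positive one for *Itga4* and *Itgb2*. Over all genes, 3999 values that passed were negative and 3032 positive; centring turned this to 2989 and 4427, and quantile normalization made it 3306 and 3307. Among the 35 genes, the largest was that of *Lamb1* (log2 -5.43, SE 0.22, adjusted p = 1.08e-08), which was lowest in GFP- Pdgfrα- cells and between 447 and 618 in the other 6 libraries. *Itga5* did not pass: it was lower in the GFP+ cells of both gates (log2 -0.06, 95% interval -0.72 to 0.61, adjusted p = 0.904). *Itga10* (log2 -0.69), *Itga11* (-0.56) and *Itgb1* (-0.38) did not pass either, except under an alternative. *Itga10* passed without GFP- Pdgfrα- replicate 2 (-1.025) and *Itga11* without GFP+ Pdgfrα+ replicate 1 (-0.92). *Itgb1* passed after quantile normalization (-0.64, adjusted p = 0.0165) and without GFP- Pdgfrα- replicate 1 (-0.55). The median over the 35 genes was -3.20 and over all genes -0.16, and centring moved the latter to 0.27 and quantile normalization to 0.10, while under both the split of the 35 genes stayed at 26 negative and 2 positive. A test of any difference among the 4 populations passed for 35 of 35 genes, against 66% of all genes.

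To compare genes with each other, values were divided by the length of the longest transcript in kb. On this per-kb scale *Nid1* was at 422 and 519 in GFP+ Pdgfrα+, 454 and 475 in GFP- Pdgfrα+, 98.8 and 119 in GFP+ Pdgfrα-, and 6.15 and 8.44 in GFP- Pdgfrα- cells. Per kb, *Lamc1* was at 153 and 179, 130.3 and 144, 199 and 253, and 4.62 and 6.08, in the same order. *Itgb1* was at 138 and 131, 131 and 111, 123 and 118, and 93.7 and 73.9, in the same order. *Nid1* thus led in both Pdgfrα+ populations, *Dag1* in GFP+ Pdgfrα- cells, at 289 and 329 per kb, and *Itgb1* in GFP- Pdgfrα- cells. There *Itga4* was close below *Itgb1*, at 86.3 and 73.5 per kb. The leads of *Dag1* and *Itgb1* depend on the transcript length used. Before division, *Lamc1* (1514 and 1928) was above *Dag1* (1274 and 1452) in GFP+ Pdgfrα- cells. Likewise *Itga4* (848 and 723) was above *Itgb1* (357 and 282) in GFP- Pdgfrα- cells. Laminin α chains summed, per kb, to 146 and 166, 124 and 133, 144 and 158, and 3.12 and 5.28, in the same order. In percent of that sum, *Lama2* was at 63.5 and 66.0, 50.6 and 52.5, 63.1 and 62.4, and 43.2 and 30.6, in the same order. *Lama4* was at 35.0 and 33.3, 48.0 and 46.0, 27.4 and 27.5, and 45.0 and 54.3, in the same order. *Lama2* was thus the largest part in all but the GFP- Pdgfrα- libraries, with *Lama4* near it in GFP- Pdgfrα+ cells and above it in GFP- Pdgfrα- cells. The percentages of *Lama5* were 0.424 and 0.251, 0.653 and 0.383, 8.73 and 9.23, and 10.9 and 7.65, in the same order, where those of GFP- Pdgfrα- cells rest on 13 and 19 reads. Of the laminin β sum per kb, *Lamb1* took between 51.5% and 90.3%, and of the γ sum *Lamc1* took between 97.2% and 99.8%.

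Integrin α chains summed, per kb, to 151 and 138 in GFP+ Pdgfrα+, 182 and 176 in GFP- Pdgfrα+, 106 and 117 in GFP+ Pdgfrα-, and 118 and 101 in GFP- Pdgfrα- cells. Unlike the laminin sums, these were not far lower in GFP- Pdgfrα- cells, and what differed was the chain that led. In percent of this sum, *Itga5* was at 21.7 and 29.9, 40.3 and 40.1, 7.38 and 10.7, and 18.3 and 16.1, in the same order. The percentages of *Itga4* were 1.09 and 2.05, 1.54 and 1.44, 2.82 and 2.93, and 73.0 and 73.0, in the same order. Those of *Itga7* were 0.538 and 0.563, 0.0488 and 0.139, 18.8 and 19.0, and 0.428 and 0.522, in the same order. *Itga4* thus made up most of the α chain signal in GFP- Pdgfrα- cells, *Itga5* was the largest part in the Pdgfrα+ populations, and *Itga7* in GFP+ Pdgfrα- cells. In GFP+ Pdgfrα- cells *Itga7* led by little. There *Itga1* was at 15.5 and 14.8, *Itga6* at 15.5 and 15.5, *Itgav* at 15.2 and 13.3, and *Itga8* at 14.9 and 15.2. Of the integrin β sum per kb, *Itgb1* took between 68.8% and 93.8%. These shares compare RNA and not protein, and they do not depend on the scaling between libraries.

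**Figure D3:**
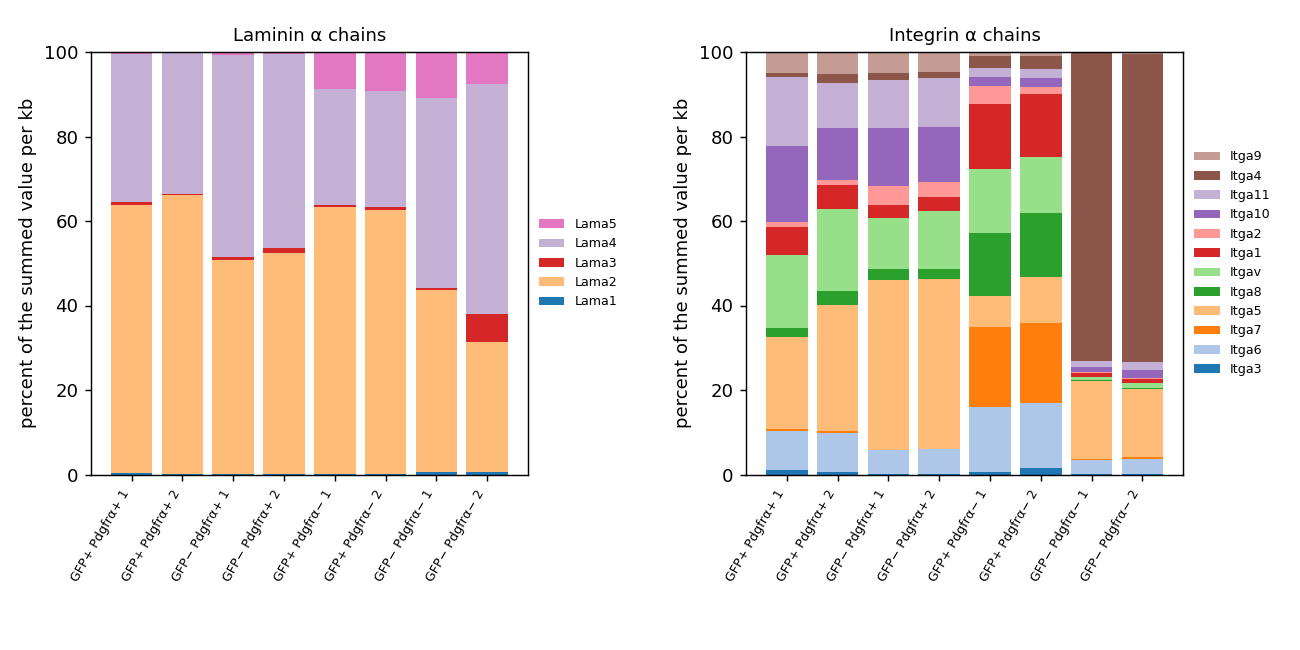
Share of each laminin α chain and each integrin α chain in the summed value per kb of its class, in percent, with 1 bar per library. *Lama5* is visible in the Pdgfrα- libraries, and *Itga4* takes 73.0% and 73.0% of the integrin α sum in GFP- Pdgfrα- cells.

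Genes that work with these proteins were counted in the same comparisons, to be read beside the shares and medians of all genes. Over all genes, 30.1% were higher and 23.6% lower in GFP+ Pdgfrα- over GFP- Pdgfrα- cells. In GFP- Pdgfrα+ over GFP- Pdgfrα- cells these shares were 32.9% and 26.8%. They were 13.1% and 11.1% in GFP+ Pdgfrα+ over GFP+ Pdgfrα- cells, and 3.22% and 2.13% in GFP+ Pdgfrα+ over GFP- Pdgfrα+ cells. A count near these shares is no trait of its list. Of 21 other basement membrane components, all measured, the calls were 18 higher and 1 lower in GFP+ Pdgfrα- over GFP- Pdgfrα- cells (median log2 fold change 2.56), 17 higher and 2 lower in GFP- Pdgfrα+ over GFP- Pdgfrα- cells (3.69), 6 higher and 5 lower in GFP+ Pdgfrα+ over GFP+ Pdgfrα- cells (0.05), and 1 higher and 0 lower in GFP+ Pdgfrα+ over GFP- Pdgfrα+ cells (0.04). *Sparc*, a collagen-binding matrix protein and the most abundant of them, had values of 22569 and 17419 in GFP+ Pdgfrα+, 9063 and 8775 in GFP- Pdgfrα+, 3259 and 3536 in GFP+ Pdgfrα-, and 345 and 634 in GFP- Pdgfrα- cells, and it was the 1 gene higher in GFP+ Pdgfrα+ than GFP- Pdgfrα+ cells (log2 1.15, adjusted p = 0.0122). *Smoc2*, a relative of *Sparc*, had values of 116 and 151, 94.2 and 124, 1.09 and 1.16, and 1.01 and 1.53, in the same order, and was higher in GFP+ Pdgfrα+ than GFP+ Pdgfrα- cells (log2 5.97, adjusted p = 9.95e-08). Both genes were higher in all 4 Pdgfrα+ libraries than in the Pdgfrα- libraries.

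Of 25 genes of the dystroglycan complex and of its glycosylation, all measured, the calls were 20 higher and 1 lower in GFP+ Pdgfrα- over GFP- Pdgfrα- cells (median log2 fold change 2.47), 17 higher and 2 lower in GFP- Pdgfrα+ over GFP- Pdgfrα- cells (1.55), 3 higher and 8 lower in GFP+ Pdgfrα+ over GFP+ Pdgfrα- cells (-0.33), and 1 higher and 0 lower in GFP+ Pdgfrα+ over GFP- Pdgfrα+ cells (0.08). Of these 25 genes, 84%, 76%, 44% and 4% were called in that order, against 53.7%, 59.7%, 24.2% and 5.35% of all genes. *Utrn*, the relative of dystrophin and the most abundant over all 8 libraries, had values of 396 and 329.9 in GFP+ Pdgfrα+, 278 and 294 in GFP- Pdgfrα+, 333 and 322 in GFP+ Pdgfrα-, and 38.1 and 54.4 in GFP- Pdgfrα- cells. *Dmd*, which encodes dystrophin, had values of 59.5 and 63.7, 51.6 and 54.2, 337 and 336, and 10.5 and 7.66, in the same order, and was lower in GFP+ Pdgfrα+ than GFP+ Pdgfrα- cells (log2 -2.43, adjusted p = 1.92e-06). *Drp2*, the dystrophin relative of Schwann cells, had values of 9.25 and 13.7, 8.19 and 11.7, 149.7 and 168, and 5.60 and 2.48, in the same order, and was lower in GFP+ Pdgfrα+ than GFP+ Pdgfrα- cells (log2 -3.70, adjusted p = 1.06e-05). Both followed *Dag1* in being highest in both GFP+ Pdgfrα- libraries. *Dtna*, a dystrobrevin, had values of 30.8 and 22.3, 2.14 and 3.12, 122 and 124, and 0.144 and 1.06, in the same order; it was higher in GFP+ Pdgfrα+ than GFP- Pdgfrα+ cells (log2 2.92, adjusted p = 0.000597) and lower in GFP+ Pdgfrα+ than GFP+ Pdgfrα- cells (log2 -2.19, adjusted p = 0.000819).

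Of 22 integrin adaptors and signalling genes, 21 were measured, with calls of 14 higher and 4 lower in GFP+ Pdgfrα- over GFP- Pdgfrα- cells (median log2 fold change 1.55), 15 higher and 5 lower in GFP- Pdgfrα+ over GFP- Pdgfrα- cells (1.53), 5 higher and 4 lower in GFP+ Pdgfrα+ over GFP+ Pdgfrα- cells (0.18), and 1 higher and 1 lower in GFP+ Pdgfrα+ over GFP- Pdgfrα+ cells (0.08). Of these 21 genes, 85.7%, 95.2%, 42.9% and 9.52% were called in that order, against 53.7%, 59.7%, 24.2% and 5.35% of all genes. The 4 and 5 lower calls lie near the 23.6% and 26.8% of all genes that were lower. *Tns1*, a tensin with the highest mean over all 8 libraries, had values of 452 and 447 in GFP+ Pdgfrα+, 821 and 751 in GFP- Pdgfrα+, 329 and 329.9 in GFP+ Pdgfrα-, and 302 and 308 in GFP- Pdgfrα- cells, and was lower in GFP+ Pdgfrα+ than GFP- Pdgfrα+ cells (log2 -0.80, adjusted p = 0.00133). *Tln2*, a talin that activates integrins and is abundant in muscle, had values of 75.0 and 67.1, 39.0 and 35.2, 206 and 237, and 3.30 and 4.36, in the same order; it was higher in GFP+ Pdgfrα+ than GFP- Pdgfrα+ cells (log2 0.92, adjusted p = 0.0153) and lower in GFP+ Pdgfrα+ than GFP+ Pdgfrα- cells (log2 -1.63, adjusted p = 7.56e-05). *Fermt3*, the kindlin of blood cells, had values of 1.52 and 1.01, 0.882 and 1.04, 1.09 and 1.41, and 155 and 127, in the same order, and was lower in GFP+ Pdgfrα- than GFP- Pdgfrα- cells (log2 -5.97, adjusted p = 5.7e-08). *Fermt3* was thus high in the GFP- Pdgfrα- libraries alone, as *Itga4* and *Itgb2* were. Of the 13 integrin partners in the membrane, measured through 14 identifiers since *Cd47* has 2, the calls were 10 higher and 2 lower in GFP+ Pdgfrα- over GFP- Pdgfrα- cells (median log2 fold change 2.74), 10 higher and 4 lower in GFP- Pdgfrα+ over GFP- Pdgfrα- cells (2.50), 6 higher and 3 lower in GFP+ Pdgfrα+ over GFP+ Pdgfrα- cells (0.31), and 1 higher and 0 lower in GFP+ Pdgfrα+ over GFP- Pdgfrα+ cells (-0.31). *Cd81*, a tetraspanin with the highest mean over all 8 libraries, had values of 452 and 498, 615 and 603, 314 and 289, and 265 and 235, in the same order. *Cd82*, another tetraspanin, had values of 3.45 and 0.719, 1.64 and 4.31, 33.1 and 43.6, and 27.4 and 24.4, in the same order, and was lower in GFP+ Pdgfrα+ than GFP+ Pdgfrα- cells (log2 -3.82, adjusted p = 0.000109). *Bcam*, a receptor for the chain encoded by *Lama5*, had values of 8.98 and 4.17, 1.64 and 1.93, 43.3 and 55.2, and 4.45 and 6.72, in the same order, and was lower in GFP+ Pdgfrα+ than GFP+ Pdgfrα- cells (log2 -2.80, adjusted p = 0.000281). *Bcam* was highest in both GFP+ Pdgfrα- libraries, where *Lama5* was. Of the 14 identifiers of membrane partners, 85.7%, 100%, 64.3% and 7.14% were called in the comparisons as listed. The shares of all genes there were 53.7%, 59.7%, 24.2% and 5.35%.

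Of 19 other integrin ligands, 18 were measured, with calls of 13 higher and 3 lower in GFP+ Pdgfrα- over GFP- Pdgfrα- cells (median log2 fold change 2.41), 14 higher and 2 lower in GFP- Pdgfrα+ over GFP- Pdgfrα- cells (2.82), 11 higher and 2 lower in GFP+ Pdgfrα+ over GFP+ Pdgfrα- cells (1.12), and 5 higher and 3 lower in GFP+ Pdgfrα+ over GFP- Pdgfrα+ cells (-0.16). Of these 18 genes, 88.9%, 88.9%, 72.2% and 44.4% were called in that order, against 53.7%, 59.7%, 24.2% and 5.35% of all genes. *Postn*, a matrix protein of periosteum and tendon with the highest mean over all 8 libraries, had values of 4514 and 5289 in GFP+ Pdgfrα+, 11988 and 11989 in GFP- Pdgfrα+, 841 and 855 in GFP+ Pdgfrα-, and 166 and 195 in GFP- Pdgfrα- cells. *Fn1*, the fibronectin that *Itga5* binds, had values of 3692 and 3217, 4332 and 4112, 496 and 525, and 202 and 302, in the same order, and was higher in GFP+ Pdgfrα+ than GFP+ Pdgfrα- cells (log2 2.75, adjusted p = 5.7e-07). Both were high in the Pdgfrα+ libraries, as *Itga5* was. *Spp1*, which encodes osteopontin, had values of 6048 and 3915, 287 and 174, 494 and 393, and 85.5 and 77.5, in the same order, and was higher in GFP+ Pdgfrα+ than GFP- Pdgfrα+ cells (log2 4.44, adjusted p = 1.34e-06). *Vcam1*, the counter-receptor of the *Itga4* product, had values of 123 and 97.0, 29.4 and 25.1, 93.8 and 109, and 7.90 and 6.25, in the same order; it was higher in GFP+ Pdgfrα+ than GFP- Pdgfrα+ cells (log2 1.97, adjusted p = 0.000213). *Vcam1* was thus lowest in the GFP- Pdgfrα- libraries, where *Itga4* was highest.

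All 35 genes passed a filter of a value above 2 in at least 2 libraries, and a gene that is seen in 1 population alone passes it only by being high there, so the counts are given as description. Exons of *Itgb4*, *Nid2*, *Itga7*, *Itga8*, *Lamc3*, *Itga4* and *Itgav* overlap those of a gene on the opposite strand. Whether strand was used in counting is not given in the sources used here, so reads of such neighbours cannot be told apart from those of the 7 genes.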

How the data were processed

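The authors removed adaptors with cutadapt and quantified reads on the NCBIM37 transcriptome with RSEM 1.17. They tested only genes with over 2 counts per 1e6 reads in at least 2 samples, and normalized with voom. The deposited table holds their normalized signal on a linear scale. On its values, a filter of over 2 in at least 2 libraries leaves 14333 of its 15880 genes. All 15880 were used here. Dividing by the step of 1 read gave whole reads for 100% of values (tolerance 0.01). Of 15880 identifiers, 15849 matched the annotation, and 5 listed symbols were matched through older names. Each population had its own mean in a fit of log2(value + 1) with limma 3.58.1 (R 4.3.3) that left 4 residual degrees of freedom, adjusted by Benjamini–Hochberg over all genes. limma called 849, 3848, 8527 and 9476 genes, and edgeR 4.0.16 on the reads 893, 3586, 8415 and 9281, in GFP+ Pdgfrα+ against GFP- Pdgfrα+, GFP+ Pdgfrα+ against GFP+ Pdgfrα-, GFP+ Pdgfrα- against GFP- Pdgfrα- and GFP- Pdgfrα+ against GFP- Pdgfrα- cells. Alternatives were a pseudocount of 0.1, a filter on low values, median centring, quantile normalization, voom or edgeR on the reads, only the compared populations, the replicate block, and leaving out each library.

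Genes that meet the rule were named; those at a mean of 5 or more in a population were given in each library, the rest by range. Other lists were given by counts, at most 4 called genes with the largest changes in a comparison, and the gene most abundant by mean over all 8 libraries. The members and lists were chosen with earlier results of these data known. The design text speaks of pooled littermates for each independent set, so libraries with the same replicate number may share a pool; their deviations from the population means correlated over genes by 0.0121 to 0.117. Per-kb values used the longest transcript. Microarrays were not used here, and withheld items are not reported here. Figures were drawn with matplotlib 3.10.9.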

Additional observations from a re-analysis of the deposited data

Results flagged for a closer look

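For 28 of the 35 genes the GFP difference differed between Pdgfrα+ and Pdgfrα- cells by the interaction test of limma, which passed for 44.3% of all genes. Each value is the GFP difference in Pdgfrα+ cells minus that in Pdgfrα- cells, on the log2 scale, and those of 27 genes follow. Among the laminins it was -5.30 for *Lama2*, -2.59 for *Lama3*, -4.43 for *Lama4*, -5.18 for *Lama5*, -5.43 for *Lamb1*, -3.53 for *Lamb2*, -5.10 for *Lamc1* and -2.40 for *Lamc3*. Linkers and dystroglycan gave -3.87 for *Nid1*, -3.79 for *Nid2*, -3.97 for *Hspg2*, -1.48 for *Agrn* and -4.56 for *Dag1*. Integrin α chains gave -3.20 for *Itga1*, -4.42 for *Itga2*, -1.77 for *Itga6*, -3.43 for *Itga7*, -5.18 for *Itga8*, -1.68 for *Itga9*, -3.79 for *Itgav* and, with the opposite sign, 4.31 for *Itga4*. Integrin β chains gave -3.65 for *Itgb3*, -2.42 for *Itgb4*, -3.17 for *Itgb5*, -1.84 for *Itgb6*, -3.82 for *Itgb8* and 2.76 for *Itgb2*. The value for *Itgb6* rests on GFP- Pdgfrα- libraries without reads and depends on the pseudocount. Of the 35 genes, 29 had their lowest mean in GFP- Pdgfrα- cells, and 4 were called between the Pdgfrα+ populations. A negative value can thus come from a low level in GFP- Pdgfrα- cells alone. *Hspg2*, for example, had a mean of 113 there, against 1410, 1729 and 1392 in the other populations. The part of the make-up of the GFP- Pdgfrα- libraries was not tested.

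The *Lama3* call did not hold with a pseudocount of 0.1 (-3.77, adjusted p = 0.0511), after quantile normalization (-2.22, adjusted p = 0.0648), without GFP+ Pdgfrα+ replicate 2 (-2.35, adjusted p = 0.0722), without GFP- Pdgfrα+ replicate 2 (-2.24, adjusted p = 0.0943), without GFP+ Pdgfrα- replicate 2 (-2.31, adjusted p = 0.0972) and without GFP- Pdgfrα- replicate 1 (-1.58, adjusted p = 0.0571). Adjusted p for *Lama3* ran from 0.000803 to 0.0972 over its 15 alternatives. The *Itgb2* call did not hold with edgeR (4.57, adjusted p = 0.0667). Adjusted p for *Itgb2* ran from 0.000516 to 0.0667 over its 15 alternatives. The *Itgb4* call did not hold with a pseudocount of 0.1 (-2.49, adjusted p = 0.0577), with voom (-2.39, adjusted p = 0.145) and with edgeR (-2.38, adjusted p = 0.129). Adjusted p for *Itgb4* ran from 0.00593 to 0.145 over its 15 alternatives. The *Itgb6* call did not hold with edgeR (-6.45, adjusted p = 0.131). Adjusted p for *Itgb6* ran from 0.0127 to 0.131 over its 15 alternatives. The *Lamc3* call did not hold with a pseudocount of 0.1 (-3.19, adjusted p = 0.0792), with voom (-3.47, adjusted p = 0.112), with edgeR (-3.99, adjusted p = 0.096), without GFP+ Pdgfrα+ replicate 2 (-1.67, adjusted p = 0.0708), without GFP- Pdgfrα+ replicate 1 (-1.96, adjusted p = 0.0865), without GFP+ Pdgfrα- replicate 2 (-2.18, adjusted p = 0.0777) and without GFP- Pdgfrα- replicate 2 (-2.23, adjusted p = 0.0592). Adjusted p for *Lamc3* ran from 0.00417 to 0.112 over its 15 alternatives. The value of *Lama3* was -3.98 and that of *Itgb2* 4.43 with voom. *Itgb6* was at -3.75 and -4.49 with a pseudocount of 0.1 and voom. Without GFP- Pdgfrα- replicate 2, the value of *Itgb3* was -2.37, and after quantile normalization that of *Itga9* was -1.01 (adjusted p = 0.0476, in a range of 0.00104 to 0.0476).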

How the results depend on the processing

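Of 111 calls of a gene in a comparison, interaction included, 85 were kept under all their alternatives (15 for the interaction, 16 otherwise), 26 were lost under at least 1 and none changed sign. Median centring ended 5 of them, quantile normalization 5, a pseudocount of 0.1 7, edgeR 5, voom 4, and leaving out 1 library between 3 and 14, where fewer samples are part of the setting; the cause was otherwise not tested. Leaving out 1 library, the count of the 35 genes called between GFP+ Pdgfrα+ and GFP- Pdgfrα+ cells ran from 0 to 5, against 4, and that of all genes from 246 to 1083, against 849; between GFP+ Pdgfrα+ and GFP+ Pdgfrα- cells that of all genes ran from 2158 to 4056, against 3848. The other totals, and all totals under the other alternatives, stayed within 1.5 times; counts by direction did not always. In such fits the lone library of a population is assumed to vary like the others. With the replicate block, *Itga7* between GFP+ Pdgfrα+ and GFP- Pdgfrα+ cells lost its call (1.38, adjusted p = 0.0506) and *Lamc1* between GFP+ Pdgfrα+ and GFP+ Pdgfrα- cells gained one (-0.44, adjusted p = 0.0123); the block changed no other call of the 35 genes. In all, 15 differences were called only under an alternative. Depth limits genes near 3 reads, a value of 0.825 to 1.04, where fold changes depend on the pseudocount, and 2 libraries a population limit precision.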
